A study of Mus musculus with 4 samples.

Results

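The 52 genes described here encode small leucine-rich proteoglycans, elastic fibre proteins, adhesive and basement membrane glycoproteins, insulin-like growth factor (IGF) binding proteins and the markers by which fibroblasts and stellate cells are recognised. They were taken by gene symbol from a table of 55487 genes measured by RNA sequencing in mouse pancreatic islets. All 52 were found, each in a single row, and 47 passed the filter for testing, a normalized read count of 10 or more in at least 2 of the 4 libraries, as did 16589 genes of the table. The islets came from C57BL/6 mice at 30 weeks of age. In 2 libraries the mice were Ggcx flox/flox without a Cre transgene (control), and in the other 2 they were Ggcx flox/flox with Pdx1-Cre (knockout). Each library pooled the islets of 2 mice, and n = 2 pools per genotype throughout. Both groups carry the floxed alleles, and no library carried Pdx1-Cre with an intact Ggcx, so the transgene and the loss of the gene cannot be told apart.

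The product of Ggcx uses vitamin K to carboxylate glutamate residues of secreted and membrane proteins. Pdx1-Cre recombines in the pancreatic epithelium, from which endocrine, acinar and duct cells arise. Fibroblasts, stellate cells, pericytes and endothelial cells come from other lineages. In and around islets those cells lay down the matrix. Fibroblasts make the interstitial fibres of collagen, elastin and fibronectin and the proteoglycans that coat them, stellate cells store vitamin A at rest and turn into matrix-producing myofibroblasts when activated, and the endothelium makes most of the vascular basement membrane on which beta cells rest.

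The libraries held between 47624630 and 51756221 reads assigned to genes. Ggcx itself stood at 3971 and 3981 normalized counts in control islets, against 234 and 643 in knockout islets, lower where the labels place the deletion. Control libraries are called columns 2 and 3, as the table numbers them. The tissue label was borne out by insulin and glucagon transcripts, with Ins2 between 6158560 and 6615640 normalized counts and Gcg between 1096490 and 1552090. The stellate part of the label had weaker support. Lrat, the retinol-esterifying enzyme of resting stellate cells, stood at 0, 1.95, 2.08 and 4.79 normalized counts, and the desmin gene Des and the smooth muscle actin gene Acta2 are also expressed by pericytes, whose marker Rgs5 reached 8855 to 10117. Of 4 mesothelial markers, Upk3b and Wt1 were at 0 in all libraries and Lrrn4 had 1 read in control column 2. The other one, Msln, the mesothelin gene, stood at 1563 and 1549.9 in control and 1794 and 2025 in knockout islets, without overlap (log2 fold change 0.29 ± 0.07, limma adjusted p = 0.0976).

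Levels within the set spanned more than 3 orders of magnitude. Per kilobase of merged exons, the mean control level was highest for Igfbp3 at 2306 normalized counts per kilobase, followed by the elastic fibre glycoprotein gene Emilin1 at 1379, the actin-severing protein gene Gsn at 1107, Sparc at 860.3, Thbs1 at 799 and Sparcl1 at 564. The laminin chain gene Lamc1 came next at 240.4. The proteoglycan genes ran from Aspn at 162 and Bgn at 92.3 through Dcn at 24.7 and Lum at 12.8 to Omd at 0.444. Below Gsn, the fibroblast and stellate markers ran from Vim at 152, Acta2 at 109 and Pdgfrb at 97.6 to Dpt at 15.6, Clec3b at 7.53 and Pi16 at 3.68. The tail of the whole set was formed by Mfap5 at 0.834, Fbn2 at 0.567 and Omd at 0.444. Emilin1, Igfbp3 and Thbs1 together supplied 43.1% of the summed normalized count of the 52 genes. The share of all reads taken by the 52 genes was 0.0903% and 0.0815% in the control libraries, against 0.0888% and 0.0848% in the knockout ones. The knockout values lay between the control values, and the difference of means was 0.000888 percentage points (exact permutation test, two-sided, p = 1, where 2 against 2 cannot go below 0.333).

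**Figure D1:**
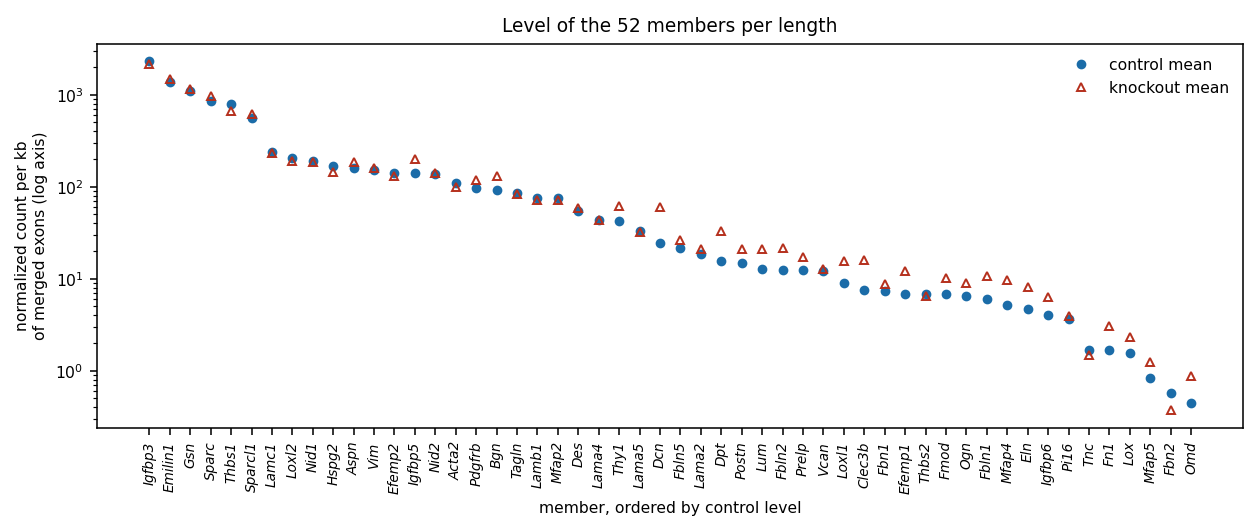
Mean normalized count per kilobase of merged exons (log axis) of the 52 genes in control and knockout islets, ordered by control level. Symbols of the abundant genes on the left nearly coincide, while Dcn (24.7 and 60.3) and many of the low genes on the right stand higher in knockout islets.

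The comparison of knockout with control asked which matrix and fibroblast transcripts differ in islets that have lost Ggcx. Dcn, which encodes decorin, rose and was the 1 gene of 47 called by limma at an adjusted p under 0.05, and none was called lower. The share of all tested genes called was 0.247% in the upward and 0.374% in the downward direction. At an unadjusted p under 0.05, 15 of the 47 were higher and 1 lower, against 6.74% and 7.34% of all tested genes. On the recovered reads, edgeR also called Dcn alone, in a test that called 0.344% of genes higher and 0.428% lower. DESeq2 called Dcn and Igfbp5 higher and none of the set lower, where 0.897% and 1.51% of its genes were called, and 13 of the 47 had no adjusted p there. The authors' deposited table has an adjusted p under 0.05 for the same 2 genes, both higher in knockout islets, with 0.830% of its genes called higher and 1.52% lower, and it gives no adjusted p for 18 of the 52. Of the 47 log2 fold changes 32 lay above 0, which is 68.1% against 50.1% of all tested genes, and their median was 0.18 against 0.00. That median was 0.07 without knockout replicate 1 and 0.11 without control column 3. In 19 genes (40.4%) both knockout values lay above both control values, against 22.0% of all tested genes, and in 4 (8.51%) both lay below, against 23.0%. Fewer cells of a type and less RNA per cell cannot be told apart in such bulk libraries, in either direction. Counted without any filter, 36 of the 52 genes had a higher mean in knockout islets and 16 a lower one. That count takes in the 5 genes below the filter, such as Omd with 1 to 3 reads. It was not made over all genes of the table, so it has no share to stand beside.

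A gene had to reach 10 normalized counts in 2 libraries to be tested, and Clec3b did so only through its knockout libraries, so its place among the 47 depended on being high there. Mfap4 passed with 3 libraries. Lox was just outside, with 1 library above 10 (9.20 and 5.85 in control, 12.5 and 9.59 in knockout islets). The others below the filter were Fbn2 (8.17, 6.82, 3.12 and 6.71), Igfbp6 (4.09, 4.87, 7.29 and 6.71), Mfap5 (3.07, 2.92, 5.20 and 3.84) and Omd (1.02, 0.974, 1.04 and 2.88), and these 5 were not tested.

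The log2 fold changes were larger among the low genes, but the differences were not confined to them. Of 17 tested genes of the set with a mean under 100 normalized counts over the 4 libraries, 14 had a log2 fold change above 0 and the median was 0.62. Among all tested genes at that level, 59.8% lay above 0 with a median of 0.08. Of the 30 genes with a mean of 100 or more, 18 lay above 0 with a median of 0.07, against 46.7% and -0.01 over all tested genes at that level. At an unadjusted limma p under 0.05, 7 of the 17 were higher, against 301 of 4345 tested genes at that level. Of the 30, 8 were higher, against 817 of 12244. Both knockout values lay above both controls in 58.8% of the 17 and 30.0% of the 30, against 25.9% and 20.7%. Dcn, the 1 gene called, had a mean of 248. Spearman's rho between log2 fold change and mean count was -0.54 across the 47 genes, which share the same 4 libraries and are not independent. Low counts also carry wider errors: the standard error of the log2 fold change was 0.05 for Sparc, with 3145 counts or more in every library, and 0.38 for Clec3b, with 16.3 or fewer.

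**Figure D2:**
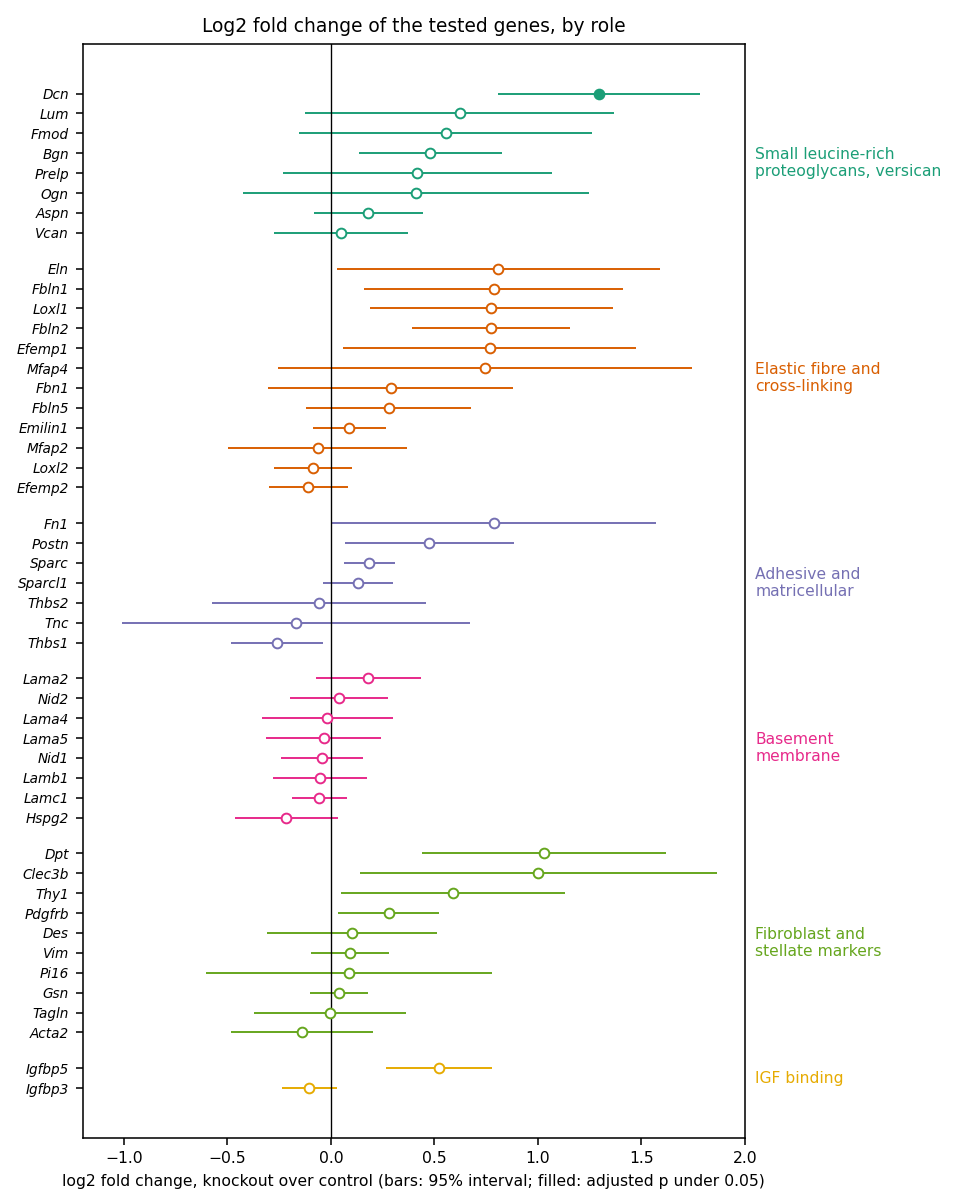
Log2 fold change of knockout over control for the 47 tested genes on the log2(value + 1) scale, by role, with 95% intervals from limma. Dcn is the filled symbol (adjusted p = 0.0449), most proteoglycan and elastic fibre genes lie to the right of 0, and the 8 basement membrane genes lie between -0.22 and 0.18.

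Small leucine-rich proteoglycans bind collagen fibrils and set their spacing and thickness, and several also sequester growth factors. All 8 tested genes of this group, with versican, had log2 fold changes above 0, as had 50.1% of all tested genes. The median of the 8 was 0.45, and 1 of them passed the test, where 0.247% of all tested genes were called higher. The median was 0.16 without knockout replicate 1 and 0.82 without knockout replicate 2. Dcn (ENSMUSG00000019929; GRCm38 chromosome 10, 97479609 to 97518143, plus strand) stood at 175 and 114 normalized counts in control columns 2 and 3 and at 408 and 296 in knockout replicates 1 and 2. The groups did not overlap, and the mean went from 144 ± 43.0 to 352 ± 79.0 (SD, n = 2 each), or 2.45 times the control level. The log2 fold change was 1.29 ± 0.21 (standard error; limma adjusted p = 0.0449). Without control column 3 the log2 fold change was 0.99 and the adjusted p 0.0651. Over 14 alternative settings the adjusted p ranged from 1.84e-05 to 0.380, and the gene was called in 9 of them. In the authors' deposited table Dcn had a log2 fold change of -1.29, given there as control over knockout, with 4.68e-05 as its adjusted p.

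Lum, which encodes lumican, lies 47.0 kb downstream of Dcn on the same strand. It was measured at 29.6 and 33.1 in control and 68.7 and 34.5 in knockout islets, so that replicate 1 stood apart and replicate 2 was barely above the controls (log2 fold change 0.62 ± 0.33, limma adjusted p = 0.454). Bgn, the gene of biglycan, a close relative of decorin, was at 588 and 538 against 948 and 649. Both knockout values were above the controls, with a log2 fold change of 0.48 ± 0.15 that did not pass the test (limma adjusted p = 0.195, and 0.00421 without knockout replicate 2). Fmod, encoding the collagen-binding fibromodulin, stood at 19.4 and 25.3 against 40.6 and 26.8, and its neighbour Prelp, 115.8 kb away, at 51.1 and 39.0 against 78.1 and 46.0. Knockout replicate 1 held the highest value of all 4 genes, and knockout replicate 2 overlapped or nearly met the controls for Lum, Fmod and Prelp.

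Asporin (Aspn), osteomodulin (Omd) and osteoglycin (Ogn) lie side by side on chromosome 13 within gaps of 14.9 and 15.2 kb, yet their control levels per kilobase were 162, 0.444 and 6.42 normalized counts. Aspn was measured at 402 and 359 in control and 473 and 392 in knockout islets, and its groups overlapped (log2 fold change 0.18 ± 0.12, limma adjusted p = 0.553). Ogn stood at 17.4 and 15.6 against 30.2 and 16.3. Vcan, encoding versican, a large hyaluronan-binding proteoglycan, was at 169.6 and 185 against 167 and 201, and its log2 fold change of 0.05 had a 95% interval from -0.28 to 0.37.

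**Figure D3:**
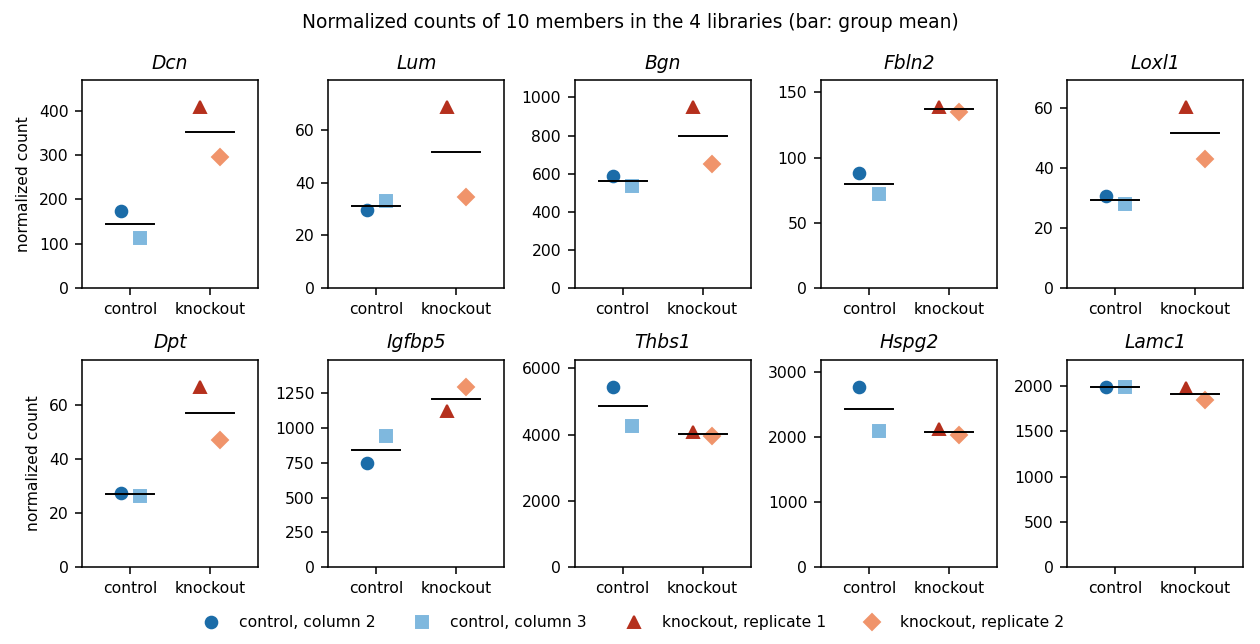
Normalized counts of 10 genes in the 4 libraries, with bars at the group means and each vertical axis starting at 0. Knockout replicate 1 is the highest library for Dcn, Lum, Bgn, Loxl1 and Dpt, Igfbp5 is highest in knockout replicate 2, and Thbs1 and Hspg2 are highest in control column 2.

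After Dcn, the lowest adjusted p-values in the set belonged to Igfbp5, Fbln2, Dpt, Sparc and Bgn. The promoters of Igfbp5, Dpt and Bgn are shown because RefSeq (GRCm38.p6) lists them with a window that takes in at most 30 bases of the annotated exons of the gene. Each line gives the 250 bases upstream of the start site, read 5′ to 3′ on the strand of the gene. Capitals mark matches on either strand to the E-box (CANNTG) or the GC box (GGGCGG).
Igfbp5, chr1:72874866-72875115, minus strand: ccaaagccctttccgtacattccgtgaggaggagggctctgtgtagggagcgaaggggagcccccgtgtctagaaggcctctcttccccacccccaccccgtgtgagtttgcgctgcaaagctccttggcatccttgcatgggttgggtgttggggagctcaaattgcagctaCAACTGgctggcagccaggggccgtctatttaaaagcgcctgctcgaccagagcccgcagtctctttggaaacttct
Dpt, chr1:164796413-164796662, plus strand: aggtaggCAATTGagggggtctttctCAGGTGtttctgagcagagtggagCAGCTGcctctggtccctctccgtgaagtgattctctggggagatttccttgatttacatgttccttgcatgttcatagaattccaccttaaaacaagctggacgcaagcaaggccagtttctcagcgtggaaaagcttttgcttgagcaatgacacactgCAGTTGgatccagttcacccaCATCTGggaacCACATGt
Bgn, chrX:73483351-73483600, plus strand: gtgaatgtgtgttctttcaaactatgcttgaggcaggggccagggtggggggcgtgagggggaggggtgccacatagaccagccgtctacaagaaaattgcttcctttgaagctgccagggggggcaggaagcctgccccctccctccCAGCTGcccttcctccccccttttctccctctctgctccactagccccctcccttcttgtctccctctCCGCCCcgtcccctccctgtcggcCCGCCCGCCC

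The Dpt window held 6 E-boxes, and that of Igfbp5 1, at 77 bases upstream of the start. That of Bgn held 1 E-box and 3 GC-box matches, 2 of which overlap. The last 19 bases of the Dpt window lie in the annotated exon of the gene. Its E-boxes at 18 and 7 bases upstream of the RefSeq start fall there. Of 32851 such windows of all genes, 66.2% held an E-box and 32.7% a GC box. In the set, 33 of 52 genes had an entry, with 42 windows in all, of which 28 held an E-box and 21 a GC box. The same windows were searched for TATAAA, found in 8 of 42 against 12.4% of all windows, for the SMAD-binding letters CAGAC, in 20 against 42.2%, and for the AP-1 letters TGANTCA, in 1 against 6.75%. None of the 3 printed windows held any of these. The GC content of the windows was 58.8% for Igfbp5, 48.8% for Dpt and 64.4% for Bgn, beside a median of 52.4% over all windows. Both strands were searched, and these counts describe letters and not binding.

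Elastic fibres consist of an elastin core in a sheath of fibrillin microfibrils, joined by fibulins and cross-linked by lysyl oxidases. None of the 12 tested genes of this group passed limma's test. At an unadjusted limma p under 0.05, 5 were higher and 0 lower, against 6.74% and 7.34% of all tested genes. The median of the 12 was 0.52, but 0.17 without knockout replicate 1 and 0.09 with a filter at 50 counts, which removes the low genes. Eln, the elastin gene, stood at 26.6 and 48.7 in control and 83.3 and 48.9 in knockout islets. Knockout replicate 2 and control column 3 were nearly equal (log2 fold change 0.81 ± 0.34, limma adjusted p = 0.337). Fbln1, encoding fibulin-1, was at 29.6 and 23.4 against 54.1 and 39.3, without overlap (log2 fold change 0.79 ± 0.28, limma adjusted p = 0.241). Loxl1, a lysyl oxidase-like enzyme needed for elastin deposition, was at 30.7 and 28.3 against 60.4 and 43.1, also without overlap (log2 fold change 0.77 ± 0.26, limma adjusted p = 0.220).

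Fbln2, encoding fibulin-2, was singled out after its values were seen because its adjusted p was the third lowest of the set. It stood at 87.9 and 72.1 in control and 138 and 135 in knockout islets, with little spread within the groups (log2 fold change 0.77 ± 0.17, limma adjusted p = 0.0820). Efemp1, another fibulin, was at 13.3 and 14.6 against 23.9 and 24.9. For both, the knockout libraries lay close together and above the controls. The abundant members of the group showed no such gap. Emilin1 was at 7336 and 6283 against 6877 and 7589, Loxl2 at 1039 and 1156 against 1091 and 977, and Efemp2 at 535 and 538 against 515 and 480.4. Their 95% intervals on the log2 scale ran from -0.09 to 0.27 for Emilin1, from -0.27 to 0.10 for Loxl2 and from -0.30 to 0.08 for Efemp2. The remaining tested genes, Fbn1, Fbln5, Mfap2 and Mfap4, had log2 fold changes from -0.06 for Mfap2 to 0.74 for Mfap4, with limma adjusted p-values of 0.512 or more.

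Adhesive and matricellular glycoproteins link cells to the matrix and modulate adhesion. None of these 7 genes was called by limma. At an unadjusted limma p under 0.05, 3 were higher and 1 lower, against 6.74% and 7.34% of all tested genes. The median of the 7 was 0.13. It was 0.049 when control column 3 was left out, 0.064 when knockout replicate 1 was, and 0.21 when control column 2 was. Fn1, encoding fibronectin, stood at only 18.4 and 20.5 normalized counts in control islets and at 46.8 and 24.9 in knockout islets (log2 fold change 0.79 ± 0.35, limma adjusted p = 0.352). Postn, the gene of periostin, made by activated fibroblasts, was at 146 and 115 against 206 and 158. Sparc, a collagen-binding glycoprotein gene, was abundant and tight, at 3373 and 3145 against 3701 and 3709.9. Both knockout values lay above both controls (log2 fold change 0.19 ± 0.05, limma adjusted p = 0.159).

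Sparcl1, its relative, was at 1748 and 1563 against 1894 and 1728, and the groups overlapped. Thbs1, encoding thrombospondin-1, an activator of latent TGF-beta and an inhibitor of angiogenesis, had the lowest log2 fold change of the set. It stood at 5448 and 4258 in control and 4083 and 3956 in knockout islets, a log2 fold change of -0.26 ± 0.10 with a limma adjusted p of 0.273. Control column 2 stood far above the other 3 libraries. Without control column 3 the value was -0.44 and the adjusted p 0.0260. Thbs2 and Tnc, encoding thrombospondin-2 and tenascin-C, were low in every library, with log2 fold changes of -0.06 ± 0.23 and -0.17 ± 0.37.

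Basement membranes are sheets of laminin and collagen IV networks bridged by nidogens and perlecan. In this group 0 of 8 genes were called by limma, edgeR or DESeq2. None had an unadjusted limma p under 0.05, where 6.74% of all tested genes were higher and 7.34% lower. The median log2 fold change of the 8 was -0.04, and it ranged from -0.16 to 0.10 as single libraries were left out. Lamc1, the laminin gamma-1 chain of most laminins, was at 1993 and 1984 in control and 1983 and 1846 in knockout islets, with a 95% interval of the log2 fold change from -0.19 to 0.08. Nid1, encoding nidogen-1, was at 1415 and 1258 against 1392 and 1202, with overlapping groups and an interval from -0.24 to 0.15. Hspg2, the perlecan gene, stood at 2770.0 and 2095 against 2114 and 2034, where control column 2 again stood alone (log2 fold change -0.22 ± 0.11, limma adjusted p = 0.433, and 0.0318 without control column 3). Lama2, a laminin chain of muscle and Schwann cell basement membranes, had the highest log2 fold change of the group, 0.18 ± 0.11, at 299 and 309 against 374 and 318. Nid2, Lama4, Lama5 and Lamb1 had log2 fold changes between -0.05 and 0.04.

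Among the 10 fibroblast and stellate cell markers, 0 were called by limma, edgeR or DESeq2. At an unadjusted limma p under 0.05, 4 were higher and 0 lower, against 6.74% and 7.34% of all tested genes. Clec3b, 1 of the 4, passed the filter only through its knockout libraries. Dpt, encoding dermatopontin, a collagen-binding protein used as a marker of universal fibroblasts, stood at 27.6 and 26.3 in control and 66.6 and 47.0 in knockout islets. The control values nearly coincided and both knockout values lay well above them, yet the difference did not pass the test (log2 fold change 1.03 ± 0.26, limma adjusted p = 0.115). Clec3b, the tetranectin gene, was at 7.15 and 7.79 against 15.6 and 16.3 (95% interval of the log2 fold change from 0.14 to 1.86, limma adjusted p = 0.284). Thy1, the CD90 surface marker of fibroblasts, neurons and lymphocytes, was at 92.0 and 164 against 190.5 and 180.3. Control column 2 was the low library here, and the limma adjusted p was 0.312 with all libraries (log2 fold change 0.59 ± 0.24) and 0.0495 without control column 3.

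Contractile and cytoskeletal markers gave smaller differences. Acta2 stood at 265 and 214 in control and 195 and 239.7 in knockout islets, with overlapping groups and a 95% interval from -0.48 to 0.20. Vim, the vimentin gene of mesenchymal cells, was at 756 and 682 against 792 and 738, and Gsn at 3537 and 3454 against 3796 and 3406. Des and Tagln, encoding desmin and transgelin, had log2 fold changes of 0.10 ± 0.18 and 0.00 ± 0.16, and Pi16, a marker of adventitial fibroblasts, 0.09 ± 0.30. Pdgfrb, the PDGF receptor of pericytes and fibroblasts, was at 591 and 478 against 664 and 627 (log2 fold change 0.28 ± 0.11, limma adjusted p = 0.291). Exons of Tagln overlap those of a tested gene on the opposite strand over 62.4% of their length, and reads of such a pair cannot be told apart where the strand setting is unknown.

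IGF binding proteins carry IGFs in tissue fluid and either restrain or prolong their action. Igfbp5 (ENSMUSG00000026185; GRCm38 chromosome 1, 72857932 to 72874884, minus strand) stood at 747 and 937 in control and 1119 and 1294 in knockout islets. The groups did not overlap, and the gap between them was of the size of the spread within each (842 ± 135 and 1206 ± 124, SD, n = 2 each). Its log2 fold change of 0.52 ± 0.11 did not pass the test (limma adjusted p = 0.0796). It was called without control column 3 (adjusted p = 0.0290), without knockout replicate 1 (0.0281) and by DESeq2 on the recovered reads (0.00489), and the authors' deposited table gives an adjusted p of 0.00699. Igfbp3, the most abundant gene of the set per length, was at 7368 and 7069.7 against 7068 and 6384, with an interval of the log2 fold change from -0.24 to 0.03. Of 14 other IGF axis genes 12 were tested, and 0 were called by limma, edgeR or DESeq2. At an unadjusted limma p under 0.05, 4 were higher and 2 lower, against 6.74% and 7.34% of all tested genes. Among the 4 was Stc2, at 8.17 and 6.82 in control and 15.6 and 15.3 in knockout islets. It passed the filter only through its knockout libraries, so its place there depended on being high in them.

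The knockout libraries differed from each other in these genes. The 8 proteoglycan genes had a median of 0.82 in knockout replicate 1 and 0.16 in knockout replicate 2, each as log2 deviation from the control mean, and 7 of 8 were higher in replicate 1. For the 12 elastic fibre genes these medians were 0.63 and 0.17, with 10 of 12 higher in replicate 1. Over all tested genes 49.9% were higher in replicate 1. The basement membrane medians were 0.00 and -0.10, and in that group 7 of 8 genes were higher in control column 2 than in column 3. For Lum, Ogn and Prelp, knockout replicate 1 stood well above the other 3 libraries, whereas for Fbln2, Efemp1, Clec3b and Sparc the knockout libraries nearly coincided.

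**Figure D4:**
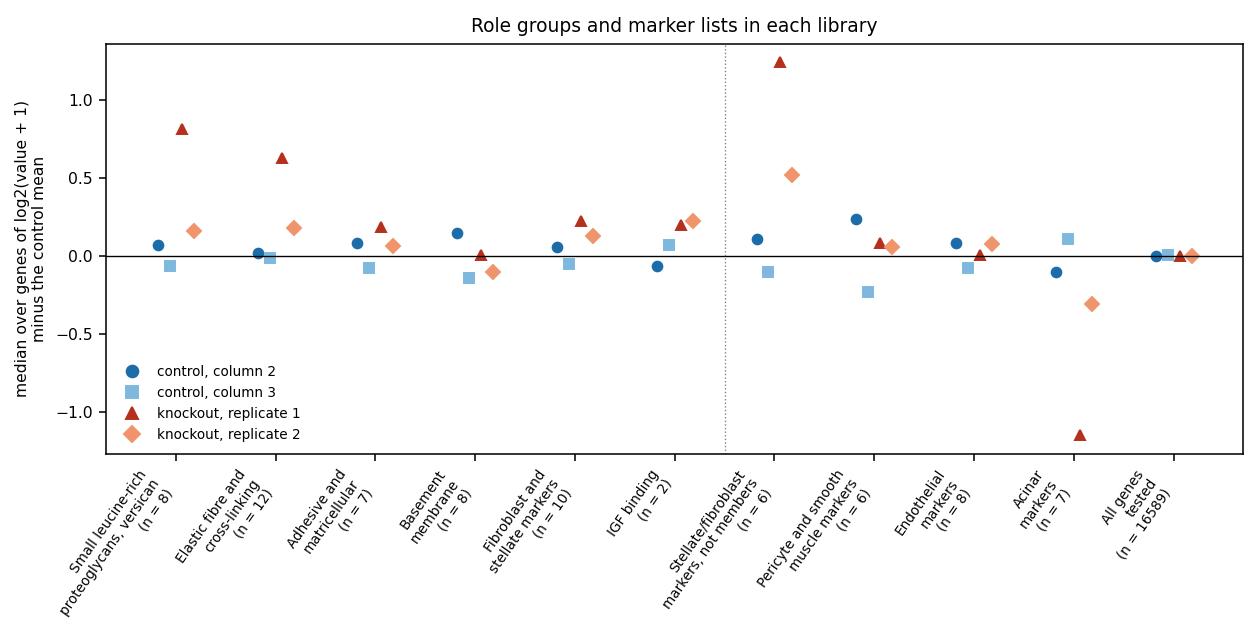
Median over the genes of each role group and marker list of log2(value + 1) minus the control mean, 1 symbol per library. Knockout replicate 1 is highest for the proteoglycan genes (0.82), the elastic fibre genes (0.63) and the stellate and fibroblast markers outside the set (1.24), and lowest for the acinar markers (-1.15).

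Marker lists of other cells were read in the same libraries. Of 8 stellate and fibroblast markers outside the set, 6 were tested, and all had log2 fold changes above 0 with a median of 0.88. Of these, 0 passed limma's test, and 5 were higher at an unadjusted p under 0.05, against 6.74% of all tested genes. The summed normalized count of the 8 was 1506 to 1832 in control and 2144 to 2748 in knockout islets. Among them the PDGF receptor gene Pdgfra stood at 12.3 and 8.77 against 36.4 and 26.8. The collagen genes Col1a1 and Col3a1 were at 151 and 126 against 379.9 and 188, and at 682 and 417 against 1084 and 804. Col6a3, a further collagen gene, was flat at 569 and 573 against 535 and 633 (log2 fold change 0.03 ± 0.10), with knockout replicate 1 the lowest library. Pdpn, below the filter, was also flat at 6.13 and 1.95 against 6.24 and 1.92. Pericyte and smooth muscle markers summed to 10417 to 12239 in control and 11824 to 12022 in knockout islets, and endothelial markers to 29146 to 33136 and 31352 to 33342, so that the groups of both sums overlapped. Rgs5 made up most of the pericyte sum, and Kcnj8, a potassium channel gene of pericytes, stood at 27.6 and 33.1 against 54.1 and 62.3 (log2 fold change 0.92 ± 0.24, limma adjusted p = 0.118). In the endothelial list Tek, the angiopoietin receptor gene, stood at 626 and 572 against 737 and 849.6 (log2 fold change 0.40 ± 0.09, limma adjusted p = 0.0924). Neither passed the test, although the knockout values of both genes lay above the controls.

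The tested acinar markers stood lower in knockout islets, with 0 past limma's adjusted threshold. All 7 tested genes of 8 had both knockout values below both control values, as had 23.0% of all tested genes. Their median log2 fold change was -0.74. At an unadjusted limma p under 0.05 all 7 were lower, against 7.34% of all tested genes. The untested gene, Amy2a5, went the other way near the floor, at 2.04 and 0.974 against 3.12 and 5.75. The summed count of the 8 genes was 10007 and 11694 in control columns 2 and 3, 4981 in knockout replicate 1 and 8615 in knockout replicate 2. The library with the lowest acinar sum was thus the library with the highest proteoglycan and fibroblast sums. The part of acinar and fibroblast content in the differences above was not tested.

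Matrix genes outside the set and matrix receptors were read from lists of their own. Of 48 other matrix genes 39 were tested, and their median log2 fold change was 0.18. Of these, 30 (76.9%) lay above 0, against 50.1% of all tested genes. By limma 1 was called higher and 0 lower, against 0.247% and 0.374% of all tested genes. At an unadjusted limma p under 0.05, 10 were higher and 1 lower, against 6.74% and 7.34%. The gene called was Smoc1, encoding a secreted calcium-binding protein of the SPARC family. It rose from 351 and 272 to 521 and 513, with a log2 fold change of 0.74 ± 0.13 (limma adjusted p = 0.0474). Without control column 3 no gene of this list was called higher, and without control column 2 there were 5. The low proteoglycan gene Podn stood at 16.3 and 9.74 against 35.4 and 24.0, and it passed the filter only with its knockout libraries. Kera, Epyc and Acan, proteoglycan genes of cornea and cartilage, and Thbs4 were at 0 in all 4 libraries. Of 22 matrix receptor genes, integrins among them, 21 were tested and 0 were called by limma, edgeR or DESeq2. At an unadjusted limma p under 0.05, 1 was higher and 1 lower, against 6.74% and 7.34% of all tested genes. The median of the 21 was 0.03, and the common integrin subunit Itgb1 was at 11691 and 11532 against 11802 and 11498. The collagen receptor gene Ddr2, expressed in fibroblasts, had the highest value of the receptors at 0.67 ± 0.19 (limma adjusted p = 0.159), and Itgb8, an integrin that activates TGF-beta, the lowest at -0.85 ± 0.20 (0.0976).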

How the data were processed

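Islet RNA was poly(A)-selected and made into libraries with standard Illumina methods, per the labels' protocols. Per the submitters' processing notes, the tools were DESeq2 1.22.2, featureCounts 1.6.0, STAR 2.5.1b and CASAVA 1.4, and the build GRCm38, with no roles given. The annotation and strand setting are not given in the sources used here. Values deposited by the authors are a signal, reads per gene divided by a factor for library size. Division by each library's smallest value above 0 left 100% of values whole to within 0.01, and these recovered reads served edgeR 4.0.16 and DESeq2 1.42.0 as alternatives. Deposited by the authors beside them are a log2 fold change, a p-value, an adjusted p-value and a score (the test statistic), used here only where credited. Column names identified the knockout samples, but for the controls only the group.

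The main test was limma 3.58.1 (R 4.3.3), fitted to log2(value + 1) over all 16589 genes past the filter with a mean-variance trend, two-sided, Benjamini-Hochberg adjusted at 0.05. The pseudocount of 1 understates changes of low genes. Prior degrees of freedom were 6.85, against 2 residual. P-values refer to the spread between pools, which the labels list as separate samples. For each gene that spread is taken more from the trend over all tested genes than from its own values. Replicates differed beyond counting noise (chi-square per degree of freedom 10.1 for control and 9.85 for knockout, over genes with at least 20 reads in a pair). The labels name no batch. The scripts were tested on simulated data. Positions, lengths and overlaps come from GENCODE M21 on GRCm38, which holds 99.4% of identifiers. For 6 of the 52 genes, exons overlap those of a further tested gene.

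The members and lists were chosen with earlier results of these data known. Genes are named where called, or among the 3 largest log2 fold changes or 3 highest levels per kilobase of their role group. Others, such as Fbln2, Efemp1 and Pdgfrb, were chosen after their values were seen.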

Additional observations from a re-analysis of the deposited data

How the results depend on the processing

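With limma, 41 genes were called higher and 62 lower. These counts were 1 and 1 with no filter on low values, 19 and 32 with a filter at 50, 0 and 0 without the trend (1841 genes had an unadjusted p under 0.05), 85 and 124 with robust empirical Bayes, and 120 and 202 with DESeq2. Leaving out single libraries gave 49 to 178 higher and 47 to 219 lower, the highest counts without control column 2. Of the 52 genes, 0 were called higher with no filter, a filter at 50, no trend or robust empirical Bayes (12, 8, 8 and 14 at an unadjusted p under 0.05), and 2 with DESeq2. Each library left out gave 2: Dcn and Fbln2 without control column 2, Thy1 and Igfbp5 without control column 3, Dcn and Igfbp5 without knockout replicate 1, and Dcn and Bgn without knockout replicate 2. Between 0 and 2 were then called lower, Thbs1 and Hspg2 without control column 3. The median of the set ranged from 0.07 to 0.25. Genes of the set with both knockout values below the controls numbered 2 at a common upper quartile. The 23.0% of all tested genes belongs to the deposited scaling, so that count has no share to stand beside.

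Other matrix genes called higher numbered 0 with no filter, a filter at 50 or no trend, 2 with DESeq2 and 0 to 5 with single libraries left out. The 1 lower call with DESeq2 was Sdc4, at 6374 and 5538 in control and 4812 and 4255 in knockout islets (DESeq2 adjusted p = 0.00140). Matrix receptors called with DESeq2 numbered 0 in each direction. With libraries left out the log2 fold change changed sign for Emilin1 (-0.022 to 0.20), Nid1 (-0.15 to 0.061), Gsn (-0.038 to 0.12) and Acta2 (-0.29 to 0.011). The cause was not tested. A filter on a mean of 10 or more, chosen after seeing the data, left Dcn called (limma adjusted p = 0.0438). No paired analysis was possible because the control columns are numbered 2 and 3 and could not be matched to the labels' replicates.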
